A study of Mus musculus with 3 samples.

Results

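The genes described here carry glucose into the cell, break it down to pyruvate and lactate, or store it as glycogen. They were taken by symbol, 35 genes of the 51923 listed in the deposited count matrix, and all 35 had counts. RNA was counted in single cells of mouse embryos on a C57BL/6 background that carried Mesp1-Cre, which recombines in early mesoderm, the Ai9 reporter for a red fluorescent protein, and floxed alleles of Wls, whose product is needed to secrete Wnt ligands. Controls had 1 floxed Wls allele (Wls fl/+) and mutants had both alleles floxed (Wls fl/fl), and both groups carried Cre and the reporter. Loss of Wls was by design limited to the Cre lineage, and other cells of the embryo, which were sorted away, could still secrete Wnt ligands. Embryos were staged, their cells tagged with MULTI-seq barcodes, sorted for the reporter and pooled. Each barcode was treated as 1 sample, with 3 controls and 3 mutants at E8.0, 2 controls and 1 mutant at E8.5, 6 controls and 6 mutants at E9.5, and 1 control labelled E7.5. Nothing in the labels says whether a barcode held 1 embryo or more, so p-values measure the spread between these samples.

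Glucose enters cells through facilitative transporters and is trapped by hexokinases. Phosphofructokinase commits it to glycolysis, and the later enzymes yield ATP and pyruvate, which either enters mitochondria through the pyruvate dehydrogenase complex or is reduced to lactate by lactate dehydrogenase and exported. Pyruvate dehydrogenase kinases switch that complex off. Embryos before and during early organ formation are known for a high rate of glycolysis, and many of these genes are known targets of the transcription factors that respond to low oxygen.

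The matrix held 14777 cells, 9852 control and 4925 mutant, in 3 sequencing runs. A barcode sample summed to between 134457 and 61307782 UMIs (unique molecular identifiers, 1 per captured transcript), and 23 cell barcodes were seen in more than 1 run. Run 1 held the E8.0 samples and run 2 those of E8.5, while each run held E9.5 samples of both genotypes. The smallest sample, Bar6, an E9.5 control, held 6 cells. Wls itself lay between 8.54 and 12.1 CPM (UMI counts scaled to the total of the sample) in the E9.5 mutants and between 35.9 and 46.1 CPM in the E9.5 controls, and the groups were also apart at E8.0 and E8.5. At E8.0 between 90.4% and 93.9% of the cells of a mutant sample had a UMI of a Y-linked gene, against 18.9% to 58.1% in controls, so genotype and sex cannot be told apart at that stage, which bears on the X-linked members Pgk1, Pdha1 and Pdk3. In samples of mixed cells, fewer cells of a type and less RNA per cell cannot be told apart.

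At E9.5 most of the listed genes were higher in Wls mutants, from the transporters to the glycogen enzymes. The list was chosen with earlier results of these data known, so its share of calls is not independent evidence. Of 34 members that passed the filter on low counts, 23 were called higher (edgeR quasi-likelihood test, adjusted p under 0.05) and 0 lower, while 5.85% of the 17227 genes tested were called higher and 5.16% lower. The median log2 fold change, mutant over control, was 0.63 over the members and 0.02 over all genes tested. The summed level of all members was 13234 to 15577 CPM in the 6 mutants and 7019 to 12383 CPM in the 6 controls. Every mutant sample was thus above every control sample in the share of RNA that came from these genes. The median number of UMIs per cell was also lower in each mutant than in each control of the same run. It was 18088.5 to 21308.5 against 21991 to 22668 in run 1, 14710 against 21244 to 24431 in run 2, and 9759.5 to 10871.5 against 12386 to 13382 in run 3. At E8.0 it was 25075 to 27469 against 27742.5 to 29940, and at E8.5 20908 against 24084.5 to 25886. The part of this depth in the results was not tested.

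**Figure D1:**
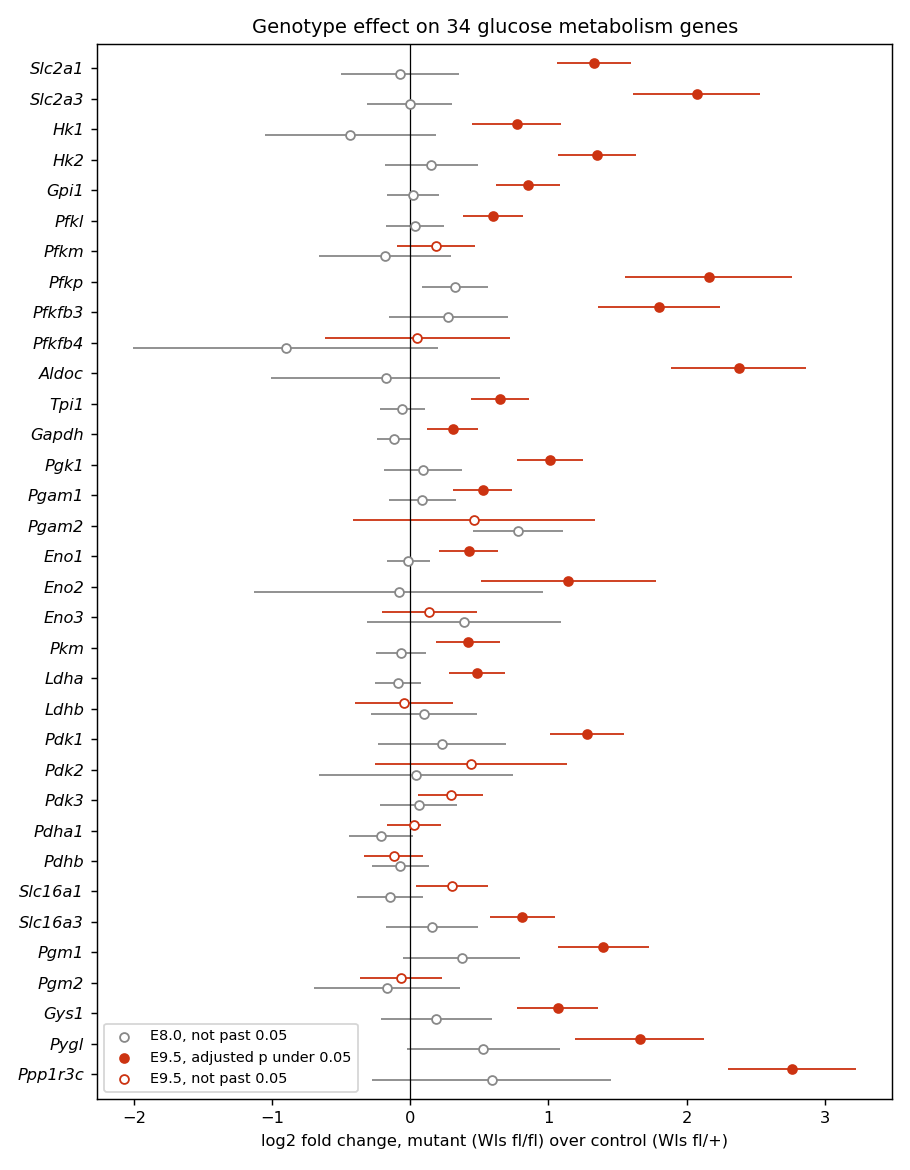
Log2 fold change of mutant over control samples with 95% intervals for 34 members, in edgeR fits at E8.0 (grey) and E9.5 (red). Filled points passed an adjusted p of 0.05. At E9.5 23 genes lie to the right of 0 and passed, from Gapdh at 0.31 to Ppp1r3c at 2.76, while at E8.0 none passed.

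Both glucose transporters rose. Slc2a1 encodes GLUT1, the widely expressed glucose transporter. Its lowest, median and highest E9.5 values were 125, 166 and 320 CPM in controls and 353, 433 and 478 CPM in mutants. The lowest mutant was above the highest control, which was Bar6, and the log2 fold change was 1.33 (SE 0.12, edgeR adjusted p = 1.26e-06). Slc2a3, which encodes the high-affinity transporter GLUT3, had 24.4, 40.1 and 89.3 CPM in controls and 113, 149 and 206 CPM in mutants. These groups did not overlap either, and the fold was 4.21 (log2 2.07, SE 0.20, edgeR adjusted p = 8.41e-05). Of the hexokinases, which phosphorylate incoming glucose, Hk2 had 84.3, 116 and 193 CPM in controls and 212, 298 and 386 CPM in mutants. The mutants were again all above the controls (log2 1.35, SE 0.12, edgeR adjusted p = 1.9e-06). Hk1, its partner isozyme, ran from 13.6 to 29.8 CPM in controls and from 24.3 to 39.9 CPM in mutants, with overlap, and rose by 0.77 on the log2 scale (SE 0.14, edgeR adjusted p = 0.0021). Hk1 lost its call without cardiomyocyte marker-positive cells (log2 0.63, edgeR adjusted p = 0.105) and in run 3 alone (0.37, edgeR adjusted p = 0.52). In run 2 alone, which held 1 mutant, its log2 fold change was 1.15.

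In the upper steps of glycolysis, the platelet form of phosphofructokinase had a larger fold than the liver form. Pfkp had 11.6, 13.6 and 26.8 CPM in controls and 40.4, 67.3 and 75.4 CPM in mutants, with no overlap. Its fold was 4.47 (log2 2.16, SE 0.26, edgeR adjusted p = 0.00113). It was 4.90 in run 1 and 7.33 in run 2, and in run 3 it was 3.07 and not called (edgeR adjusted p = 0.179). Pfkl, the liver form, rose by 0.60 (SE 0.09, edgeR adjusted p = 7.18e-04), and Pfkm, the muscle form, was not called, with a log2 fold change of 0.19 and a 95% interval from −0.09 to 0.47. The intervals of Pfkp and Pfkl did not overlap, but the difference between them was not tested. Pfkfb3 makes fructose 2,6-bisphosphate, an activator of phosphofructokinase. It had 4.19, 6.80 and 22.3 CPM in controls and 16.2, 26.7 and 30.2 CPM in mutants. Only the control Bar6 reached into the range of the mutants, and the log2 fold change was 1.80 (SE 0.19, edgeR adjusted p = 3.14e-05). Its relative Pfkfb4 was not called (0.05, interval −0.62 to 0.72). Gpi1, the isomerase after hexokinase, had 215, 280 and 320 CPM in controls and 393, 466 and 581 CPM in mutants. It rose 1.80-fold with no overlap (log2 0.85, SE 0.10, edgeR adjusted p = 4.51e-05).

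Among the aldolases, which split the sugar, Aldoc had 0, 2.12 and 2.81 CPM in controls and 6.87, 11.5 and 16.2 CPM in mutants. The control at 0 was Bar6. A count of 0 was taken to allow up to 3 UMIs, which in Bar6 are 22.3 CPM. The log2 fold change was 2.38 (SE 0.21, edgeR adjusted p = 1.44e-06). Aldoa, the main aldolase of most tissues, had 63 UMIs in all cells and did not pass the filter at E9.5. The GENCODE M21 annotation holds a second gene of that name, so the low count of Aldoa may not stand for its expression, and nothing is read from it.

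Enzymes of the lower steps rose as well. Triose phosphate isomerase (Tpi1), glyceraldehyde phosphate dehydrogenase (Gapdh), phosphoglycerate kinase (Pgk1), phosphoglycerate mutase (Pgam1), enolase (Eno1) and pyruvate kinase (Pkm) all passed. Pgk1 had 630, 914 and 1302 CPM in controls and 1353, 1667 and 2171 CPM in mutants, which did not overlap, and it rose 2.01-fold (log2 1.01, SE 0.10, edgeR adjusted p = 7.63e-06). The other 5 rose by between 0.31 (Gapdh) and 0.65 (Tpi1) on the log2 scale, with SEs from 0.08 to 0.10. Their isozymes of muscle and nerve gave a mixed picture. Eno2, the neuronal enolase, had 251 UMIs in all cells. It ran from 0 to 0.81 CPM in controls and from 0 to 1.64 CPM in mutants, with overlap, and was called at 1.15 (SE 0.27, edgeR adjusted p = 0.0125), but not with the share of cells with a Y-linked UMI as a covariate (1.08, edgeR adjusted p = 0.072). Eno3 (0.14, interval −0.21 to 0.48) and Pgam2 (0.46, interval −0.41 to 1.34), the muscle forms, were not called. Pgam2 was spread over 0 to 80.8 CPM in controls and 3.23 to 107 CPM in mutants. The highest sample of each group, Bar7 and Bar8, also had the highest share of cardiomyocyte marker-positive cells of its group (11.6% and 12.5%), whose part in the spread was not tested.

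At the pyruvate branch, Ldha, the lactate exporter Slc16a3 and the kinase Pdk1 rose, and the other 6 members were not called. Ldha, the lactate dehydrogenase subunit of rapidly glycolytic cells, had 1418, 2006 and 2796 CPM in controls and 2326, 2707 and 2931 CPM in mutants. Bar6 alone overlapped with the mutants, and the rise was 0.48 (SE 0.09, edgeR adjusted p = 0.00227). Ldhb, the heart subunit, ran from 53.6 to 94.1 CPM in controls and from 53.9 to 99.9 CPM in mutants and was not called (−0.04, interval −0.40 to 0.31). Slc16a3 encodes MCT4, a lactate exporter. It had 96.7, 141 and 238 CPM in controls and 206, 230 and 278 CPM in mutants, apart but for Bar6 (log2 0.81, SE 0.10, edgeR adjusted p = 6.44e-05). Slc16a1, which encodes MCT1, was not called (0.30, edgeR adjusted p = 0.093). It was called with the Y-linked share as a covariate (0.43, edgeR adjusted p = 0.012) and without erythroid marker-positive cells (0.39, edgeR adjusted p = 0.0142), as was Pdk3 in the latter fit (0.36, edgeR adjusted p = 0.0254). Pdk1, a kinase that turns pyruvate dehydrogenase off, had 36.6, 41.9 and 81.8 CPM in controls and 79.1, 102 and 113 CPM in mutants. It rose 2.43-fold (log2 1.28, SE 0.12, edgeR adjusted p = 1.72e-06), and only Bar6 lay above the lowest mutant, Bar20. The kinases Pdk2 (0.44) and Pdk3 (0.29) and the subunits Pdha1 (0.03, interval −0.17 to 0.22) and Pdhb (−0.12, interval −0.33 to 0.09) did not pass.

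**Figure D2:**
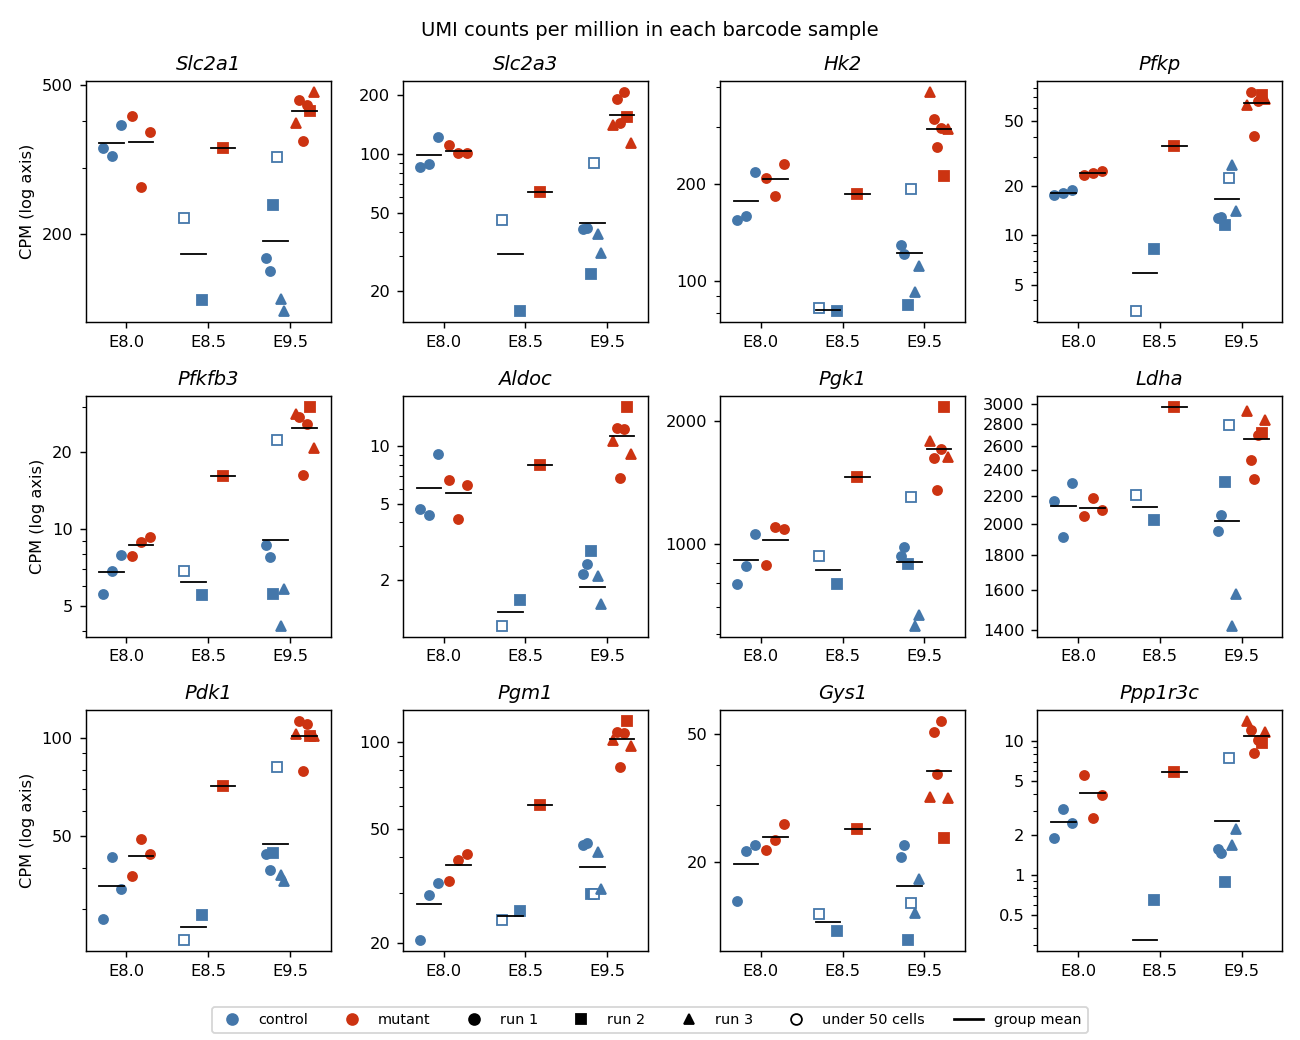
CPM of 12 members in each barcode sample of E8.0, E8.5 and E9.5 on log axes, by stage, with controls in blue and mutants in red. Marker shape gives the run, open symbols are samples under 50 cells, lines are group means, and samples at 0 (Ppp1r3c in Bar2, Aldoc in Bar6) cannot be drawn. For Slc2a1 the groups overlap at E8.0, while at E9.5 its mutants lie between 353 and 478 CPM, above all controls.

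The glycogen genes held the strongest change of the set, and enzymes of both synthesis and breakdown rose. Ppp1r3c encodes a subunit that brings protein phosphatase 1 to glycogen and thereby activates its synthesis. It had 0.89, 1.62 and 7.44 CPM in controls and 8.11, 10.96 and 14.1 CPM in mutants. The highest control was Bar6, in which 7.44 CPM was 1 UMI, with an exact Poisson 95% interval of 0.19 to 41.4 CPM that covers all mutants. The other 5 controls lay below every mutant, and the fold was 6.79 (log2 2.76, SE 0.20, edgeR adjusted p = 1.71e-07). Gys1, glycogen synthase, had 11.4, 16.3 and 22.5 CPM in controls and 23.7, 34.7 and 54.8 CPM in mutants. It rose 2.10-fold without overlap (log2 1.07, SE 0.13, edgeR adjusted p = 4.49e-05). Pygl, a glycogen phosphorylase, which releases glucose from glycogen, had 0, 5.55 and 8.38 CPM in controls and 12.5, 18.4 and 24.6 CPM in mutants. All 6 mutants were above the other 5 controls. Bar6 had a count of 0. The limit for a count of 0 was set at 3 UMIs, which is not the exact Poisson interval. In Bar6 it is 22.3 CPM, which reached into the range of the mutants. The log2 fold change was 1.66 (SE 0.20, edgeR adjusted p = 7.99e-05). Pgm1 interconverts the glucose phosphates between glycolysis and glycogen. Its values were 29.8, 36.2 and 44.6 CPM in controls and 82.2, 105 and 119 CPM in mutants with no overlap (log2 1.40, SE 0.14, edgeR adjusted p = 2.36e-05). Its relative Pgm2 was not called (−0.07, interval −0.36 to 0.23).

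Every mutant sample lay above every control sample in 13 of 34 members (2.39% of genes tested), and in 18 without Bar6 (3.13%). Of the 13, Aldoc and Pygl had a count of 0 and Ppp1r3c 1 UMI in Bar6, whose counting limits reach into the mutants. Bar6 held 134457 UMIs in all, and its counting limits reach into the mutants for others of the 13 too, Slc2a1 and Slc2a3 among them. All mutants lay below all controls in 0 members, both with Bar6 (0.377% of genes) and without it (0.871%). Without any single sample, 20 of the 23 members stayed called. Gapdh lost its call without Bar22 or Bar9 (highest edgeR adjusted p = 0.080), Eno2 without Bar22 or Bar23 (0.115) and Pkm without Bar9 (0.053). Run 1 alone gave 20 of 34 members called higher (4.81% of genes) and run 3 alone 17 of 32 (0.855%). Run 2 held 1 mutant, Bar5, against Bar4 and the 6-cell Bar6, with 1 residual degree of freedom, so the lone mutant was assumed to vary like the controls. It gave 8 of 31 (1.77%), and 0 members were lower in any run. Calls were lost for Gapdh, Eno1 and Pkm in run 1 and for Hk1, Pfkp, Gapdh, Gys1 and Pygl in run 3. Slc2a1 rose by 1.37, 0.98 and 1.54 in the 3 runs, Pgk1 by 0.75, 1.32 and 1.18, and Pfkfb3 by 1.54, 2.53 and 2.05. Cardiomyocyte marker-positive cells made up 0% to 11.6% of a control and 2.88% to 12.5% of a mutant sample at E9.5, and primitive erythroid ones 8.77% to 39.6% and 10.1% to 31.6%. Proepicardium cells made up 0% to 3.26% (mean 1.88%) of controls and 2.38% to 6.07% (mean 4.69%) of mutants, and paraxial mesoderm 5.49% to 16.7% (mean 12.1%) and 5.26% to 11.1% (mean 8.23%). Without cardiomyocyte cells 22 members were called higher (5.51% of genes), and without erythroid cells 25 (9.86%). The share of cells with a Y-linked UMI ran from 6.41% to 100% in E9.5 controls and from 7.74% to 88.3% in mutants, and with it as a covariate 23 members were called higher (4.69% of genes), Eno2 not among them. Summed markers of endoderm or epithelium lay between 0 and 225 CPM in controls and 98.1 and 401 CPM in mutants, and those of neural cells between 9.47 and 245 and between 6.94 and 32.3 CPM. The part of the proepicardium, paraxial mesoderm, endoderm or epithelium and neural cells in the result was not tested.

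Of 50 other genes of the pathway and its side branches tested at E9.5, 5 were called higher (10%, against 5.85% of all genes) and 1 lower (2%, against 5.16%), with a median log2 fold change of 0.14. Epm2a, the glycogen phosphatase laforin, rose by 1.21 (SE 0.24). Ppp1r3b, another glycogen-targeting subunit, rose by 1.12 (SE 0.29), the branching enzyme Gbe1 by 0.86 (SE 0.16) and the glycogen-binding protein Stbd1 by 0.71 (SE 0.13). The fifth was Galk1, galactokinase, at 0.54 (SE 0.10). The gene that fell was Pgd of the pentose phosphate pathway, at −0.41 (SE 0.10), and edgeR adjusted p-values of these 6 ran from 0.0017 for Galk1 to 0.0189 for Ppp1r3b. Of 14 genes known to respond to low oxygen outside glucose metabolism, 14 were called higher, with a median of 2.17. That list was drawn up with results of these data known and is not independent evidence.

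At E8.0 the main edgeR fit called no difference between the genotypes in these genes. Of 34 members 0 were called in either direction (edgeR, 0.0122% of 16416 genes called). DESeq2 called 1 member, and edgeR with no low-count filter called 1. Over all genes edgeR called 2, with 1625 at an unadjusted p under 0.05, and DESeq2 called 45. The median log2 fold change was 0.03 over the members and 0.01 over all genes. Slc2a1 was at 338, 322 and 389 CPM in the controls and at 413, 267 and 374 CPM in the mutants. Slc2a3 was at 85.9, 89.0 and 121 CPM in controls and 110, 100 and 101 CPM in mutants, and Pgk1 at 799, 881 and 1055 and at 889, 1098 and 1086 CPM. These groups overlapped. Pgam2 was the member nearest to a call, with 21.6, 21.2 and 27.4 CPM in controls and 47.9, 40.0 and 39.2 CPM in mutants (log2 0.78, interval 0.45 to 1.10, edgeR adjusted p = 0.33). Every mutant was above every control in 4 members (Pfkp, Pgam2, Pgm1 and Pygl), as in 12.5% of all genes, and below in 1 (Pdha1), as in 3.67%. Summed cardiomyocyte markers lay between 4472 and 4625 CPM in the mutants and 1836 and 3218 CPM in the controls at this stage, and their part in the Pgam2 values was not tested.

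The change of the genotype effect from E8.0 to E9.5 was itself tested. It was called for 13 of 34 members, in each case as a larger mutant excess at E9.5 (0.47% of 17872 genes), and for 0 as a smaller one (0.0448%). The difference in log2 fold change was 2.57 for Aldoc (SE 0.36, edgeR adjusted p = 0.00207), 2.19 for Ppp1r3c, 2.09 for Slc2a3, 1.84 for Pfkp, 1.54 for Pfkfb3, 1.41 for Slc2a1, 1.21 for Hk2 and 1.06 for Pdk1. Smaller differences were called for Pgk1 (0.92), Gys1 (0.88), Gpi1 (0.83), Tpi1 (0.71) and Ldha (0.58). Genotype and sex could not be told apart at E8.0. A part of sex in the E8.0 effect therefore enters these differences too, with X-linked Pgk1 among the 13, and cannot be told apart from genotype. This set depended on single samples: 6 of the 13 stayed called without any one sample. Leaving out the E8.0 mutant Bar25 left 6 members called and Bar28 left 8. With limma on the mean CPM per cell 0 members and 0 genes were called (790 genes at an unadjusted p under 0.05). In run 1 alone, which held both stages, 2 members were called, while the members' median difference was 0.67, against 0.69 in all runs.

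The single E8.5 mutant, Bar1, lay above both controls of its stage in the summed level of these genes. That stage was described without a test of its own. The summed members came to 14684 CPM in Bar1, against 10733 and 9898 CPM in the controls Bar2 and Bar3. The exact Poisson 95% interval of Bar1, which covers counting error only, lay wholly above those of both controls in 19 of 35 members and wholly below in 0. Over all 20831 genes these shares were 2.48% and 1.72%. Intervals lie apart more readily at high counts, and many members had high counts. Bar2 held only 872892 UMIs in 34 cells, so these shares do not compare like with like. Slc2a1 had 340 CPM in Bar1 and 220 and 134 CPM in the controls. Pfkp had 35.02 CPM in Bar1 and 3.44 and 8.25 CPM in the controls, and Ldha 2971 CPM and 2205 and 2026 CPM. Ppp1r3c had 5.92 CPM in Bar1 (interval 4.54 to 7.58) and 0.652 CPM in Bar3. In Bar2 it had a count of 0, taken to allow up to 3 UMIs or 3.44 CPM, a limit other than the Poisson interval. Bar1 also held a larger share of cardiomyocyte marker-positive cells, 11.7% against 2.94% and 2.51%. In control samples 27 of 34 members were called higher in that cell type and 2 lower, beside 19.6% and 24.9% of all genes. Pfkp and Ppp1r3c were among the higher. The part of that cell type in the summed level, the count of 19 and the single values was not tested.

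Over all stages in 1 model, 20 of 35 members were called higher and 0 lower (4.35% of 20831 genes higher and 5.9% lower), with a median of 0.42. They ranged from 0.24 for Pkm (edgeR adjusted p = 0.048) to 2.05 for Ppp1r3c (SE 0.32, edgeR adjusted p = 0.0012). Of the 20, 18 stayed called without any single sample, while Pkm and Aldoc did not. Without E9.5, 0 members and 0 genes were called by edgeR (2373 genes at an unadjusted p under 0.05). Run 1 alone, which held 11 of the 22 samples, ended every call, with 0 of 34 members higher (0.00569% of genes, 3689 genes at an unadjusted p under 0.05) and a median of 0.32. Run 2 alone gave 12 of 33 members (0.409%) and run 3 alone 17 of 33 (0.921%).

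From E8.0 to E9.5, with genotype as a covariate, 10 members rose and 3 fell (edgeR, 12.2% of 18063 genes higher and 9.94% lower). Pgm1 rose by 1.08 on the log2 scale, Pygl by 0.89, Pfkfb3 by 0.87, Pdk1 by 0.86, Ldhb by 0.74 and Eno3 by 0.71. The genes that fell were Slc16a1 (−0.48), Pgm2 (−0.42) and Pdha1 (−0.29). In controls alone 0 of 34 members rose and 3 fell (1.8% of genes higher and 1.72% lower), namely Aldoc (−1.37), Slc2a3 (−1.29) and Slc16a1 (−0.71), and the members' median was −0.06. In mutants alone 19 of 35 members rose and 0 fell (7.5% and 6.09% of genes), with a median of 0.64, and Slc2a3 (0.76) and Aldoc (1.06) were among those that rose. Fits by genotype were added after the data were seen, and the interaction above is the test of their difference. No run term was in the stage fits above. All E8.0 samples lay in run 1 and E9.5 samples in all 3 runs, so stage and run are mixed in them. Summed members of E9.5 controls were 10535 and 11032 CPM in run 1, 10459 and 12383 in run 2, and 7019 and 7876 in run 3. E9.5 mutants had 13234 to 15577 CPM in run 1, 14043 in run 2, and 14323 and 14859.5 in run 3. The fits by genotype were not made in run 1 alone. Run 1 alone, with both genotypes, gave 11 of 34 members higher and 3 lower (14.6% and 15% of genes).

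Cells were next grouped by lineage markers. A cell was counted as positive when its summed marker CPM passed a threshold, set after the distributions were seen, for 1 lineage alone. Those past none (5992 cells) or past more than 1 (824 cells) entered no group. The cardiomyocyte group held 768 cells, the primitive erythroid 2260, the endothelial 493, the proepicardium 402, the paraxial mesoderm 1783 and the second heart field 2255. In the second heart field and proepicardium groups more cells lay within a factor of 2 of the threshold (4724 and 1440) than past it (2961 and 669). Proepicardium cells also had more CPM of cardiomyocyte markers (median 989) than of their own (494). Erythroid markers stood at a median of 1388 to 1527 CPM in the other groups, and whether this was RNA shared between cells was not tested.

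In control samples most members were higher in the cardiomyocyte group. Of 34 members 27 were higher than in the other cells of the same samples and 2 lower (edgeR with the sample as a block, 7 samples). The shares over all genes were 19.6% and 24.9%. Of 50 other glucose metabolism genes, 24 were higher and 11 lower. The largest excess was that of Pgam2, the muscle phosphoglycerate mutase (log2 7.48, SE 0.22). Ppp1r3c followed at 4.77, Pfkp at 3.33, Pygl at 2.81, Eno3, the muscle enolase, at 2.35 and Hk1 at 2.35. Pgm2 (−1.58) and Pfkfb4 (−1.31) were lower. At E9.5 control cardiomyocyte marker-positive cells had 468 ± 109 CPM of Pgam2 (SD, n = 4), against 3.97 ± 1.67 in the second heart field group (n = 4), and 19.9 ± 2.09 CPM of Ppp1r3c against 1.43 ± 0.70.

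Primitive erythroid cells had 7 of 33 members higher and 18 lower than the other cells (edgeR, 9 samples). These were 21.2% and 54.5% of members, beside 28% and 43.6% of all genes. Pfkfb4 was higher by 4.00 (SE 0.17), Hk1, the hexokinase known in red cells, by 2.33, Pdk2 by 1.94, Pfkm by 1.19, Pdk1 by 0.74 and Pdhb by 0.70. Pgam2 (−4.76), Ldhb (−3.71), Eno3 (−3.22), Ppp1r3c (−3.14), Pgm1 (−2.69) and Aldoc (−2.30) were lower. At E9.5 Pfkfb4 stood at 25.5 ± 5.46 CPM in control erythroid cells (n = 5) and at 3.51 ± 0.17 CPM in the second heart field group (n = 4). Hk2, in contrast, stood at 18.8 ± 8.42 CPM in erythroid and 133 ± 18.1 CPM in second heart field cells.

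**Figure D3:**
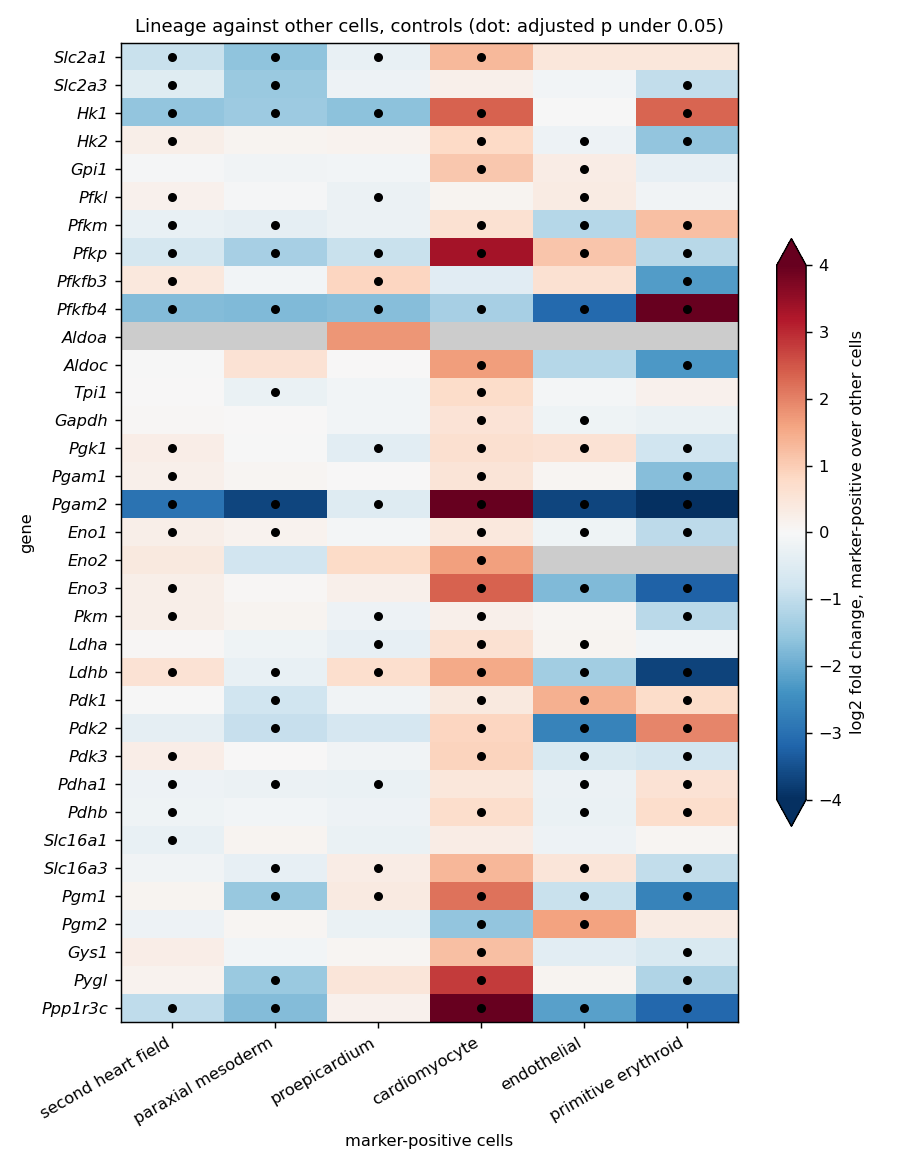
Log2 fold change of marker-positive cells over the other cells of the same control samples, for each member and lineage. Red is higher, blue lower, grey not tested, and a dot marks an edgeR adjusted p under 0.05. The cardiomyocyte column is red for 27 called members, up to 7.48 for Pgam2, and the erythroid column holds 7 called red and 18 called blue cells.

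The other groups were compared with the rest of the cells in the same way. Endothelial cells had 8 members higher and 14 lower (14.9% and 20.2% of genes), led by Pgm2 (1.61), Pdk1 (1.43), Pfkp (1.12), Pgk1 (0.57), Slc16a3 (0.48) and Pfkl (0.34) above, and by Pgam2 (−3.68), Pfkfb4 (−3.11), Pdk2 (−2.69), Ppp1r3c (−2.18), Eno3 (−1.77) and Ldhb (−1.38) below. Without single samples Pdk2 ran from −7.91 to −2.33 and Pfkfb4 from −4.14 to −2.78, and Ppp1r3c (−2.93 to −1.72) lost its call without any of Bar29, Bar3, Bar22, Bar23 and Bar9. Paraxial mesoderm had 1 higher, Eno1 at 0.14 (not called without Bar3, Bar4 or Bar9), and 16 lower (10.3% and 16.4%), with Pgam2 at −3.67, Pfkfb4 at −1.76, Ppp1r3c at −1.74, Slc2a1 at −1.62, Pgm1 at −1.51 and Slc2a3 at −1.48. The second heart field group had 10 higher and 11 lower (14.6% and 17.1%). Its increases were at most 0.59 (Ldhb), and Slc2a1 (−0.88), Hk1 (−1.57) and Pgam2 (−2.96) were among those lower. Proepicardium had 4 higher and 10 lower (7.41% and 11.7%), with Pfkfb3 at 0.87 and Ldhb at 0.68 above and Pfkfb4 (−1.69), Hk1 (−1.65) and Pfkp (−0.90) below. Its calls of Slc2a1 (−0.31) and Pgam2 (−0.50) turned to 0.17 and 0.72 with a doubled marker threshold, which left 2 samples. Calls were also lost for Slc2a1 without Bar22, Pfkp without Bar23, Pfkfb3 without Bar3 or Bar23 and Pgam2 without Bar22 or Bar9.

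The mutant excess was then measured within each lineage, over all stages with stage and run as covariates. It was called for 14 of 32 members in the second heart field group (1.72% of genes higher), 13 of 31 in paraxial mesoderm (2.89%), 6 of 32 in cardiomyocyte (0.357%), 1 of 31 in proepicardium (0.0759%), 0 of 28 in endothelial (0.101%) and 0 of 30 in primitive erythroid marker-positive cells (0%), and 0 members were called lower in any. The shares of all genes called lower were, in the same order, 1.95%, 3.22%, 0.0183%, 0.0325%, 0.0101% and 0%. The members' median log2 fold change was, again in that order, 0.63, 0.61, 0.33, 0.87, 0.35 and 0.01. The counts thus do not rank the lineages by size of change. In the erythroid group edgeR called 0 of 11370 genes, with 884 at an unadjusted p under 0.05. Ppp1r3c led in both mesoderm groups, with a log2 fold change of 2.67 (SE 0.47, edgeR adjusted p = 0.0088) and 3.03 (SE 0.63, edgeR adjusted p = 0.0074), and Pfkp followed with 1.86 and 2.17. In cardiomyocyte marker-positive cells Pfkfb3 (1.65), Aldoc (1.54), Pdk1 (0.90), Pgk1 (0.50), Tpi1 (0.40) and Ldha (0.29) were called. The proepicardium gene was Slc2a1 (2.17, SE 0.15, edgeR adjusted p = 1.08e-06). In that group the controls Bar3 and Bar9 were the only samples of their stage or run. With stage and run as covariates, its genotype effect rests on the controls Bar22 and Bar23 against the mutants Bar19, Bar20 and Bar21. These counts were fragile. Without Bar22 or Bar23, both E9.5 controls, 0 members were called in the second heart field group (0.086% and 0.102% of genes higher) and in cardiomyocyte marker-positive cells (0% and 0.0367%), and without Bar9 3 (0.469%) and 0 (0.0184%). In the second heart field group 1 was called without Bar3 (0.273%) or Bar1 (0.336%). With the marker threshold doubled 1 was called there (0.219%) and 2 in paraxial mesoderm (1.38%). In paraxial mesoderm 5 were called without Bar22 (0.526%) and 6 without Bar23 (0.543%), Bar3 (1.8%) or Bar1 (1.64%). In proepicardium 21 were called without Bar20 (3.32%), and in the endothelial group 9 without Bar29 (0.606%).

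With E9.5 samples alone, a fit added after the data were seen, the calls rose to 22 of 32 members in the second heart field group (4.21% of genes higher), 22 of 30 in paraxial mesoderm (7.03%) and 16 of 30 in cardiomyocyte marker-positive cells (2.05%). There was 1 of 31 each in proepicardium (Slc2a1, 0.0877% of genes) and primitive erythroid cells (Slc2a3, 0.198%). The proepicardium fit again rests on the controls Bar22 and Bar23, since the control Bar9 was the only sample of its run. The endothelial group had 1 mutant sample at this stage and was not fitted. Slc2a1 was at 91.4 ± 26.3 CPM in control and 356 ± 115 CPM in mutant second heart field cells (SD, n = 4 and 5), at 64.9 ± 6.78 and 211 ± 72.3 CPM in paraxial mesoderm (n = 4 each), at 127 ± 4.18 and 567 ± 60.1 CPM in proepicardium (n = 3 each) and at 540 ± 39.6 and 994 ± 217 CPM in cardiomyocyte marker-positive cells (n = 4 and 5). Pdk1 was at 42.7 ± 4.38 and 136 ± 25.2 CPM in the second heart field group, and at 34.2 ± 5.61 and 31.5 ± 7.69 CPM in erythroid cells (n = 5 and 4). Its log2 fold change was 1.71 in the former and 0.00 in the latter. Slc2a3 was the only member called in erythroid cells, at 13.4 ± 5.71 CPM in controls and 42.8 ± 13.4 CPM in mutants (log2 1.44, SE 0.22). Without a call, the other members tested there ran from −0.57 (Eno3) to 1.20 (Pygl, SE 0.60), with Slc2a1 at 0.86 (SE 0.23).

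**Figure D4:**
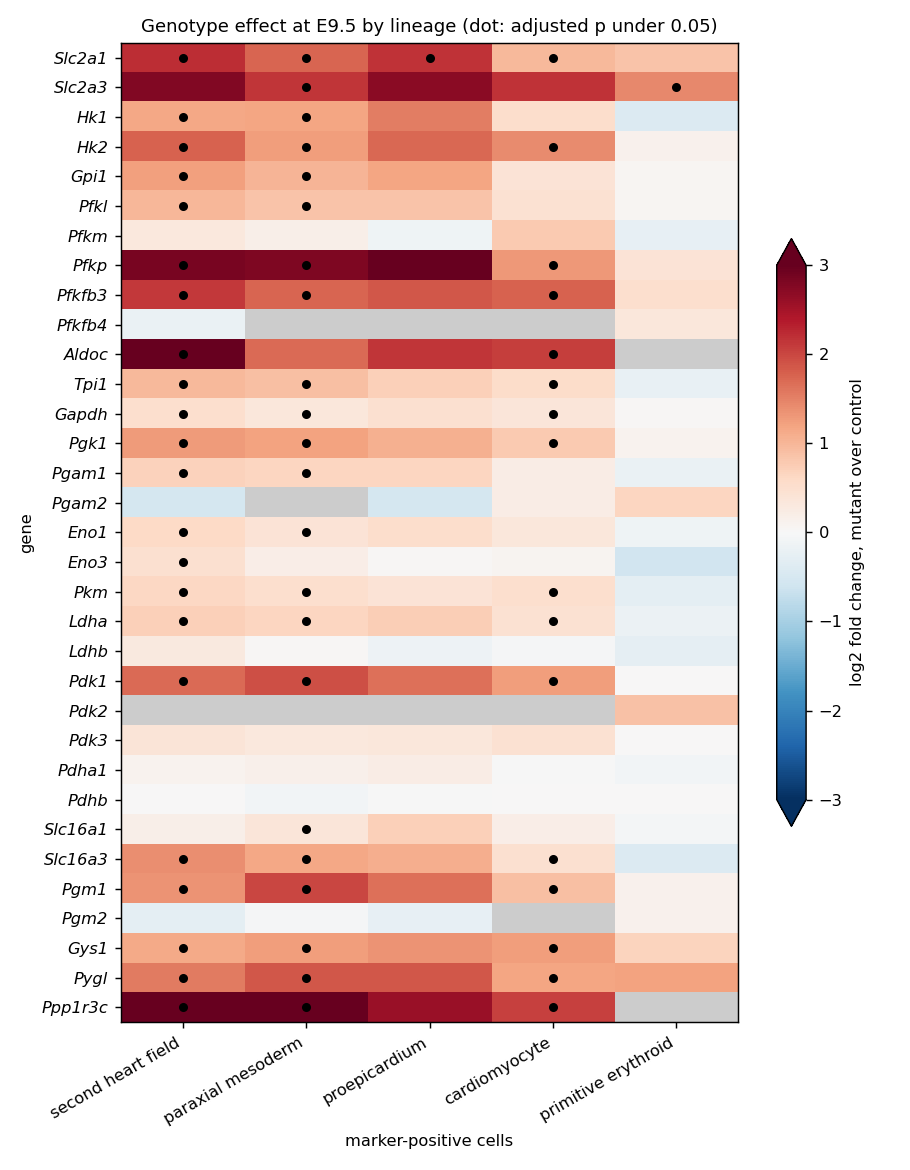
Log2 fold change of mutant over control at E9.5 within marker-positive cells of 5 lineages, for each member. A dot marks an edgeR adjusted p under 0.05 and grey a gene not tested. The second heart field and paraxial mesoderm columns hold 22 dots each, the cardiomyocyte column 16, and the erythroid column 1, at Slc2a3.

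Differences between lineages in this mutant effect were tested at E9.5 against the second heart field group, within samples that held both, again as a fit added after the data were seen. In primitive erythroid cells the effect was smaller for 10 of 33 members (0.432% of genes lower), and larger for 0 (0.573%). The difference in log2 fold change was −2.29 for Pfkp (SE 0.39, edgeR adjusted p = 0.0022), −1.62 for Pdk1, −1.53 for Hk1, −1.35 for Slc2a1, −0.97 for Tpi1 and −0.88 for Gpi1, and the other 4 were Pgk1, Pfkl, Ldha and Eno1. Of these 10, 5 stayed called without any single sample. The count was 5 without Bar19 or Bar21 and 6 without Bar22, Bar23 or Bar10. In cardiomyocyte marker-positive cells it was smaller for 3 of 31 members (0.0846% of genes lower, 0.0376% higher), namely Pfkp (−1.47), Slc2a1 (−1.06, SE 0.13, edgeR adjusted p = 1.94e-05) and Slc16a3 (−0.80). Pfkp lost this call without Bar22, Bar4 or Bar8 (highest edgeR adjusted p = 0.061). Neither proepicardium nor paraxial mesoderm gave a called difference (edgeR, 0 of 31 members each, 0.0364% and 0.0516% of genes, 861 and 794 genes at an unadjusted p under 0.05), and without Bar20 paraxial mesoderm gave 5.

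Because most members moved together, their promoters were searched for a shared short motif, ACGTG on either strand, with overlapping matches counted as 1 site. ACGTG is one form of the core of the element known to bind low-oxygen factors, GCGTG being the other, and it also lies inside the E box CACGTG. RefSeq windows of 300 bases (250 before and 50 after a transcript start, GRCm38.p6) were matched by symbol for 34 of 35 members, all but Slc2a3. At least 1 window held the motif in 21 of 34 members (61.8%), in 27.0% of the genes tested and in 21.8% of all genes with a window. Within the set it was found in 14 of 22 members called higher at E9.5 (63.6%) and in 7 of the other 12 (58.3%). Aldoa, which was not tested at E9.5, was among those 7. There were 2 or more sites in 8 of those 22 (36.4%), in 2 of those 12 (16.7%), and in 29.4% of members against 4.47% of genes tested. The difference between called and other members was not tested. For GCGTG, also on either strand, the share was 61.8% of members and 49.8% of genes tested. The 4 members with the largest rise and a window are shown, and the pair Ldha and Ldhb, of which 1 rose. Each is written 5′ to 3′ on the strand of the gene, with ACGTG in capitals and GCGTG left in lower case.
Ppp1r3c (chr19:36736555-36736854, minus strand): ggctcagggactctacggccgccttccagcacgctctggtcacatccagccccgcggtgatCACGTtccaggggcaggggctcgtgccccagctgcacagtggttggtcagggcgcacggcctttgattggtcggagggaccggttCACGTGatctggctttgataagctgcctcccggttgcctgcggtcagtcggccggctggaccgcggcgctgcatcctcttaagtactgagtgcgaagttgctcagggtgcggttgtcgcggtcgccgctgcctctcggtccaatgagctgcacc
Aldoc (chr11:78322823-78323122, plus strand): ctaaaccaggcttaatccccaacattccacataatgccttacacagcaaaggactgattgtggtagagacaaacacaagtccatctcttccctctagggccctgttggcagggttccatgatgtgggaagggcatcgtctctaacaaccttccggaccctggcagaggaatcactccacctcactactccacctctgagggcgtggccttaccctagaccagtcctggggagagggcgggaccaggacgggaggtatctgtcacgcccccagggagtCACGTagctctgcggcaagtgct
Pfkp (chr13:6648722-6649021, minus strand): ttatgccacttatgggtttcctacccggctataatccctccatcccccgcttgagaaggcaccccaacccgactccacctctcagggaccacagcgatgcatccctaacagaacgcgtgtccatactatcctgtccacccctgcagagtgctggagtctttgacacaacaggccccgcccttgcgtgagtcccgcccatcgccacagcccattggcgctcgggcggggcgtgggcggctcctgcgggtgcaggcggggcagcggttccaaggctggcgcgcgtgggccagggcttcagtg
Pfkfb3 (chr2:11553880-11554179, minus strand): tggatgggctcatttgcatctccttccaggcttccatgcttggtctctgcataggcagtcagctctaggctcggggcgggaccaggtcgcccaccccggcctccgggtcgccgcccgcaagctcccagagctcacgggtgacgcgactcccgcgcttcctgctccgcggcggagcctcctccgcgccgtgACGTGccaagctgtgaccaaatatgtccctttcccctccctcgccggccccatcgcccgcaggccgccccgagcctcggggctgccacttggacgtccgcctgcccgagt
Ldha (chr7:46845554-46845853, plus strand): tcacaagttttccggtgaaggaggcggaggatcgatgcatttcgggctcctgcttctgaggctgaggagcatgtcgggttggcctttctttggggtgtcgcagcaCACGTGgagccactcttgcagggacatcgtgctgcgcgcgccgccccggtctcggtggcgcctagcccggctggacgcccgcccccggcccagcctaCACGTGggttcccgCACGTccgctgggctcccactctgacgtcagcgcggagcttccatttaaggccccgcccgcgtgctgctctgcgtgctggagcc
Ldhb (chr6:142507908-142508207, minus strand): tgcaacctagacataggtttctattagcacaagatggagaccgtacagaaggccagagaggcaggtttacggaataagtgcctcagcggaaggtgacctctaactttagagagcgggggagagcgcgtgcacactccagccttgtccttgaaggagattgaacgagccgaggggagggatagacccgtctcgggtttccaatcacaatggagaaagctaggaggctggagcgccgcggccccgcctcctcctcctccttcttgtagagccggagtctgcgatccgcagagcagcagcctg
The window of Ppp1r3c held 2 ACGTG sites, that of Pfkfb3 1, that of Aldoc 1 just after the start, and that of Ldha 3. Those of Pfkp, among the largest to rise, and Ldhb, which was not called, held 0. For GCGTG the counts in the windows shown were 4 in Pfkp, 2 in Aldoc, 2 in Ldha, 1 in Ppp1r3c, 1 in Ldhb and 0 in Pfkfb3. The window shown is the first in the RefSeq table for its gene. A second window held 1 ACGTG and 2 GCGTG sites for Pfkfb3, 0 and 1 for Aldoc, and 0 and 2 for Ldha. A match describes the sequence and does not show that a factor binds there.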

How the data were processed

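The deposited matrix holds raw UMI counts per gene and cell. Per the labels, the authors made it with kallisto and bustools from 10x Chromium v3 reads and demultiplexed it by MULTI-seq barcode. The submitters' processing notes give build GRCm38, version 0.46.1 for bustools and no version for kallisto. Cell Ranger is named there too, without a version. The annotation, the filters on cells and the treatment of doublets are not given in the sources used here. Stage, genotype, run and barcode came from the authors' per-cell table.

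Counts were summed per barcode sample (22 samples) and tested by the robust quasi-likelihood test of edgeR 4.0.16 under R 4.3.3 (genes filtered by filterByExpr, TMM scaling, two-sided, Benjamini-Hochberg over all genes tested, threshold 0.05), with run as a covariate at E9.5, stage and run over all stages, and the sample as a block between cells of a sample. Tested alternatives were DESeq2 1.42.0, limma 3.58.1 on log2 of mean CPM per cell plus 1, other filters and scalings, each run, cell subsets and leaving out each sample. The scripts were tested on simulated data. No doublet caller was run, and cells past thresholds of more than 1 lineage were left out of the lineage groups.

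Lineage groups needed at least 20 positive cells in a sample. Summed marker CPM had to reach 5000 (cardiomyocyte), 20000 (primitive erythroid), 1000 (endothelial), 300 (proepicardium, second heart field) or 500 (paraxial mesoderm). Members, lists and markers were chosen with earlier results of these data known. One gene of the list of other glucose metabolism genes is not reported here and was left out of its counts. Members were given in full where called, up to 15 by size of change at E9.5, with isozyme partners, and up to 6 in each direction for stage and lineage. Near-identical copies of the last 400 bases of member transcripts were sought among GENCODE M21 transcripts of other gene names. They were found for 6 members, and under 1% of the UMIs of a member and its copies were assigned to the copies. Reads that could not be assigned to 1 gene, and the second gene named Aldoa, are not covered by this.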

Additional observations from a re-analysis of the deposited data

Results flagged for a closer look

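In the 46 groups of 6 samples checked, 7 had a sample that stood far from the others. Chance gives about 1 in 20 for independent groups of equally precise values. These groups shared samples, and the values of Bar6 came from 6 cells, so that rate does not hold here. The E9.5 control Bar6, a sample of 6 cells, was the highest control for Slc2a3 (89.3 CPM), Pfkfb3 (22.3 CPM), Pdk1 (81.8 CPM), Slc16a3 (238 CPM) and Ppp1r3c (7.44 CPM). The E9.5 mutant Bar20 was the lowest mutant for Pfkp (40.4 CPM) and Pdk1 (79.1 CPM).

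A genotype effect that differed between E9.5 and E8.0 by an interaction term was found for Aldoc (2.57 on the log2 scale), Ppp1r3c (2.19), Slc2a3 (2.09), Pfkp (1.84), Pfkfb3 (1.54), Slc2a1 (1.41), Hk2 (1.21), Pdk1 (1.06), Pgk1 (0.92), Gys1 (0.88), Gpi1 (0.83), Tpi1 (0.71) and Ldha (0.58). As stated above, genotype and sex could not be told apart at E8.0. At E9.5 the effect in cardiomyocyte marker-positive cells differed from that in second heart field cells for Pfkp (−1.47), Slc2a1 (−1.06) and Slc16a3 (−0.80). In primitive erythroid cells it differed for Pfkp (−2.29), Pdk1 (−1.62), Hk1 (−1.53), Slc2a1 (−1.35), Tpi1 (−0.97), Gpi1 (−0.88), Pgk1 (−0.87), Pfkl (−0.79), Ldha (−0.71) and Eno1 (−0.54).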

How the results depend on the processing

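Over all stages, edgeR's 2134 genes became 3274 with DESeq2, 510 with limma, 687 with the share of cells with a Y-linked UMI as a covariate and 310 with 50 cells per sample. Members and genes called were 0 and 2 in run 1 alone, 12 and 60 in run 2, and 123 genes in run 3. Without E9.5 both were 0. Leaving out each sample gave 1334 to 2484 genes and 18 to 21 members. At E8.0 the 2 genes became 45 with DESeq2, 19 with no filter (1 member each) and 0 with the Y-linked covariate, and 1 to 17 genes and 0 to 0 members without single samples. The Y-linked share went with genotype at that stage. A fit with both terms can hardly separate them, so nothing is read from its 0. At E9.5 the 1897 genes became 138 with limma, 255 with 50 cells per sample, 105 in run 3 alone and 186 in run 2 alone, with 8 members in run 2. Leaving out each sample gave 802 to 2449 genes and 21 to 24 members.

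For the difference between E9.5 and E8.0, the 92 genes and 13 members became 397 and 22 with DESeq2, 0 and 0 with limma, 5 and 2 with 50 cells per sample, and 17 and 2 in run 1 alone. The genes alone moved to 183 with no filter, 259 with the Y-linked covariate and 188 without erythroid cells. Leaving out each sample gave 35 to 146 genes and 6 to 17 members. For E9.5 against E8.0, controls alone gave 630 genes and 3 members, and mutants alone 2582 genes, where Slc2a3 (0.76) and Aldoc (1.06) had the opposite sign to the controls.

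Within lineages, members called without single samples ran from 0 to 19 in the second heart field group, 5 to 18 in paraxial mesoderm, 0 to 15 in cardiomyocyte, 0 to 1 in erythroid, 0 to 9 in endothelial and 1 to 21 in proepicardium cells. With E9.5 alone they were 22, 22, 16 and 1 in the first 4. A doubled threshold gave 1 in the second heart field group and 2 in paraxial mesoderm, and a halved one 20 in paraxial mesoderm and 1 in erythroid cells. Against other cells, proepicardium gave 9 with the threshold doubled and 8 to 12 without single samples, and there Slc2a1 turned to 0.17 (doubled) and 0.063 (halved) and Pgam2 to 0.72 (doubled). For the difference from the second heart field group, erythroid cells gave 5 to 15 and paraxial mesoderm 0 to 5. The causes were not tested. No paired analysis was possible because the barcode numbers pair no control with a mutant. The genotype effect in proepicardium cells was not run with the threshold doubled, since too few samples then held 20 cells.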

Other observations

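The control sample labelled E7.5 (Bar18, 28 cells) entered the fit over all stages, where it was the only sample of its stage term, and no other comparison of genotypes. Without it 20 of 34 members were still called higher there. Its summed members came to 5440 CPM, and 67.9% of its cells were primitive erythroid marker-positive. Slc2a1 stood at 179 CPM there (exact Poisson 95% interval 144 to 221).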
